A study of Bos taurus with 18 samples.

Results

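The baseline transcriptome of healthy bovine (Bos taurus) milk cells was described from the 6 arrays that the labels give as milk of healthy animals, out of 18 arrays in all, with 1 array per cow. The other arrays were from cows with mastitis or endometritis, and no test between health states was made: the endometritis arrays serve only to describe the rank and spread of the same genes. The healthy cows showed no clinical signs and no abnormality of udder or milk, and their milk held fewer than 100000 somatic cells per ml. The labels give an age of 2 to 4 years and a lactation from the 1st to the 3rd, with 1 animal in its 4th and 1 in its 8th, which do not all fit together, and most samples were taken 10 to 100 days after calving. The healthy animals came from local conventional dairy farms and from clinics, and the labels give no breed and no sorting of the cells, so each array measured the cells of a milk sample in bulk. RNA was hybridised to Affymetrix bovine arrays, and a probe set is a group of probes on the array that reports 1 transcript. Of 24128 probe sets, 13292 carried 1 gene symbol and were no controls, and these covered 9155 genes. A gene with several probe sets was represented by the one with the highest mean over all 18 arrays. All values are signals on a log2 scale, so a step of 1 is a doubling. Different probe sets bind with different strength, so a signal was compared between arrays and was not read as the amount of one transcript against another. Arrays are called healthy 1 to healthy 6 in the order of their records. The sample numbers in their titles form a high run, healthy 1 to healthy 3, and a low run, healthy 4 to healthy 6.

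Milk contains shed secretory epithelial cells of the mammary alveoli together with leukocytes. Secretory cells make caseins, the whey proteins alpha-lactalbumin and beta-lactoglobulin, and the fat globules, which leave the cell wrapped in its membrane with butyrophilin. Macrophages take up debris and fat and break them down in lysosomes, neutrophils enter the milk when the gland is challenged, and T cells lie within and beneath the epithelium.

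Healthy 3 stood apart in its control transcripts, and healthy 6 had the lowest median correlation with the other arrays, 0.91 against 0.93 to 0.97. The poly-A control transcripts, which are spiked into a sample's RNA before labelling, were brightest on healthy 3, with a mean for the dap control of 9.03 against 6.79 to 7.44 on the other arrays. The hybridisation controls averaged 9.77 on healthy 3 and 8.53 to 9.02 elsewhere. Across all non-control probe sets the correlation between arrays ran from 0.90, for healthy 3 with healthy 6, to 0.982, for healthy 4 with healthy 5. It was 0.97 for healthy 6 with healthy 1 and for healthy 3 with healthy 4. The GAPDH control signal at the 3′ end exceeded that at the 5′ end by 0.35 on healthy 6 and by up to 1.52 on healthy 4. The part of these differences in the results was not tested, and values without either array are given beside the main results that rest on it.

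The brightest genes were those of milk synthesis and of the ribosome. Of the 50 genes with the highest mean, 31 encode ribosomal proteins, 9 belong to the mammary secretory list, 3 serve translation in other ways, 4 encode ferritin, beta-2-microglobulin or cytoskeletal proteins, and 3 are in none of these lists. The 50th gene by mean, ACTB, had 11.84, and the gene just outside had 11.81. Without any single array, 49 or 50 of the 50 genes kept their place. On the 6 arrays of cows with endometritis, 47 of them were again among the 50 brightest.

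PAEP, which encodes beta-lactoglobulin, had signals of 14.16, 14.15, 14.17, 14.20, 14.13 and 14.09 on healthy 1 to 6. CSN3, kappa-casein, had 13.94, 14.06, 14.13, 13.85, 13.86 and 13.48. CSN2, beta-casein, had 13.51, 13.40, 13.46, 13.37, 13.24 and 13.03. All arrays were close together on these probe sets, and healthy 6 was lowest for each. Another bright CSN2 probe set was spread more, with an SD of 0.715, at 11.36 on healthy 6 and up to 13.26 on healthy 4. LALBA, the alpha-lactalbumin part of lactose synthase, had a mean of 13.37 ± 0.18 (SD, n = 6), with 13.02 on healthy 6 and no other array under 13.36. GLYCAM1, a milk mucin, had 13.32 ± 0.25 (SD, n = 6) and CSN1S2, alpha-S2-casein, 13.29 ± 0.23 (SD, n = 6). These genes lay near the highest value of the whole table, 14.23, and whether the upper end of the scale limits their spread was not tested. The labelled source was checked on its markers. CSN2, CSN3, LALBA and PAEP were among the 5 brightest genes on average, and CD68, a lysosomal membrane protein of macrophages, was well above background on all 6 arrays.

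**Figure D1:**
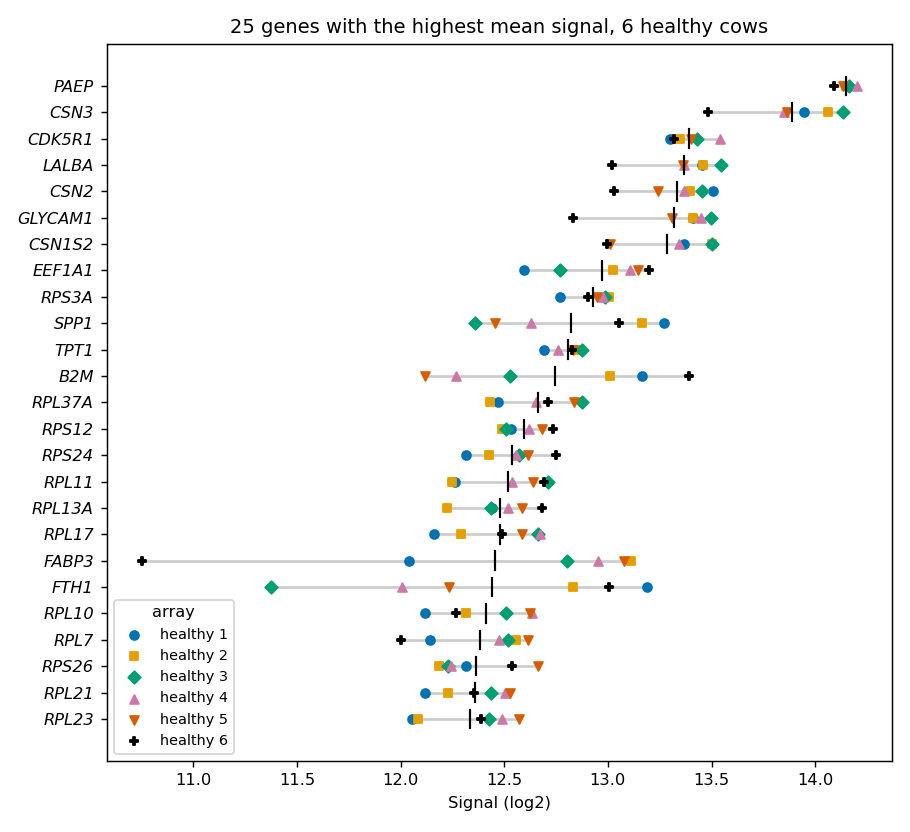
The 25 genes with the highest mean signal over the 6 healthy arrays, on a log2 axis, with each array as a coloured point, the range as a grey line and the mean as a black bar. Milk protein genes lie above 13 on nearly every array, ribosomal protein genes are tightly grouped, and FABP3, FTH1 and B2M are spread most, from 10.75 to 13.11 for FABP3.

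The ribosomal protein genes were bright and even. Of 63 measured, 61 were above background on all 6 arrays, and their median SD among those not at background was 0.24 log2 units, against 0.34 over all 7241 genes that were not at background on every array. RPS3A, of the small ribosomal subunit, had 12.77, 13.00, 12.98, 12.98, 12.95 and 12.90. Of the other two, RPL37, of the large subunit, was at background on all 6 arrays, at 2.43 to 2.55, and RPS19, of the small subunit and named after its values were seen, was above background on healthy 3 alone, at 3.08. The highest signal lay on healthy 5 for 33 of 62 genes (background over all genes 23.4%), and the lowest lay on healthy 1 for 31 (background 19.2%) and on healthy 2 for 29 (background 13.6%). The differences between arrays were small, with medians from -0.25 on healthy 1 to 0.25 on healthy 5. EEF1A1, the elongation factor that brings aminoacyl-tRNA to the ribosome, had 12.60, 13.02, 12.77, 13.11, 13.15 and 13.20.

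FTH1, B2M, SPP1 and FABP3 had SDs of 0.69, 0.52, 0.39 and 0.92, against a median of 0.21 over the 50 brightest genes. FTH1, the ferritin heavy chain that stores iron, had 13.19, 12.83, 11.37, 12.01, 12.23 and 13.00. B2M, the light chain of MHC class I, had 13.16, 13.01, 12.53, 12.27, 12.12 and 13.39. SPP1, osteopontin, a secreted phosphoprotein made by mammary epithelium and by macrophages, had 13.27, 13.17, 12.36, 12.63, 12.45 and 13.05. For these 3 genes healthy 1, healthy 2 and healthy 6 were each higher than healthy 3, healthy 4 and healthy 5. FABP3, the fatty acid binding protein of milk fat synthesis, had the opposite extreme, with 10.75 on healthy 6 and 12.04 to 13.11 on the other arrays.

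Some bright signals carried symbols of genes that other tissues are known for, and there the probe sets of a gene disagreed. POMC, the precursor of the pituitary hormone corticotropin, averaged 11.95 ± 0.29 (SD, n = 6) on one probe set and 3.45 on its other. CDK5R1, an activator of a neuronal kinase, averaged 13.39 on its brightest probe set, 12.21 and 11.89 on a further pair, and 2.93 on the remaining one. ITGB5, an integrin subunit, averaged 12.29 on one and 2.71 on the other, and was named after its values were seen. MYH7, the slow myosin heavy chain of muscle, averaged 7.90 on 1 probe set and 2.43 on both others. CHGA, a granule protein of endocrine cells, averaged 8.08 and 2.48. PRL, prolactin, averaged 7.72 on its brightest probe set, 5.33 on the next and at most 2.44 on the other 4. What the bright probe sets bind was not tested, so these signals are given as those of the probe sets and not of the genes. Of the 100 brightest non-control probe sets, 18 had no single gene symbol, the highest of them at 12.71.

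Background was set at the median of the whole deposited table, 2.55, close to its lowest value of 2.43. By this measure 1914 of 9155 genes (20.9%) were at background on all 6 healthy arrays, 5690 (62.2%) were above it on all 6, and 1551 were above it on some. The count at background rises to 3232 with the line at 3 and to 4754 with the line at 4. A gene at background is one whose probe set gave no signal above this line, and for 414 of the 1914 genes more than 1 probe set was measured.

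Lists of tissues that milk should not hold had a larger share of genes at background than the 20.9% of all genes. The 25 cell type, tissue and process lists named 508 genes, of which 396 were measured. All 9 measured genes of the erythroid list were at background on all 6 arrays, among them HBB, the beta chain of haemoglobin, at 2.45 to 2.49, and AHSP, which stabilises free alpha chains. So were 12 of 16 germ line and placenta genes, 13 of 19 neuron and retina genes, 12 of 20 hepatocyte genes, 11 of 21 muscle genes, 9 of 18 genes of endocrine organs, pancreas and gut, and 8 of 15 endothelial and stromal genes. PECAM1, the adhesion molecule of vessel walls, lay at 2.77 to 2.90. COL1A1, a chain of type I collagen, lay at 2.62 to 2.74, and COL1A2 and COL3A1 were at background. These levels were just above or under the line on every array. The basal and myoepithelial list had 5 of 9 genes at background, including ACTA2, smooth muscle actin, and CNN1, calponin, while KRT5, the basal keratin, lay at 3.42 to 3.89.

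**Figure D2:**
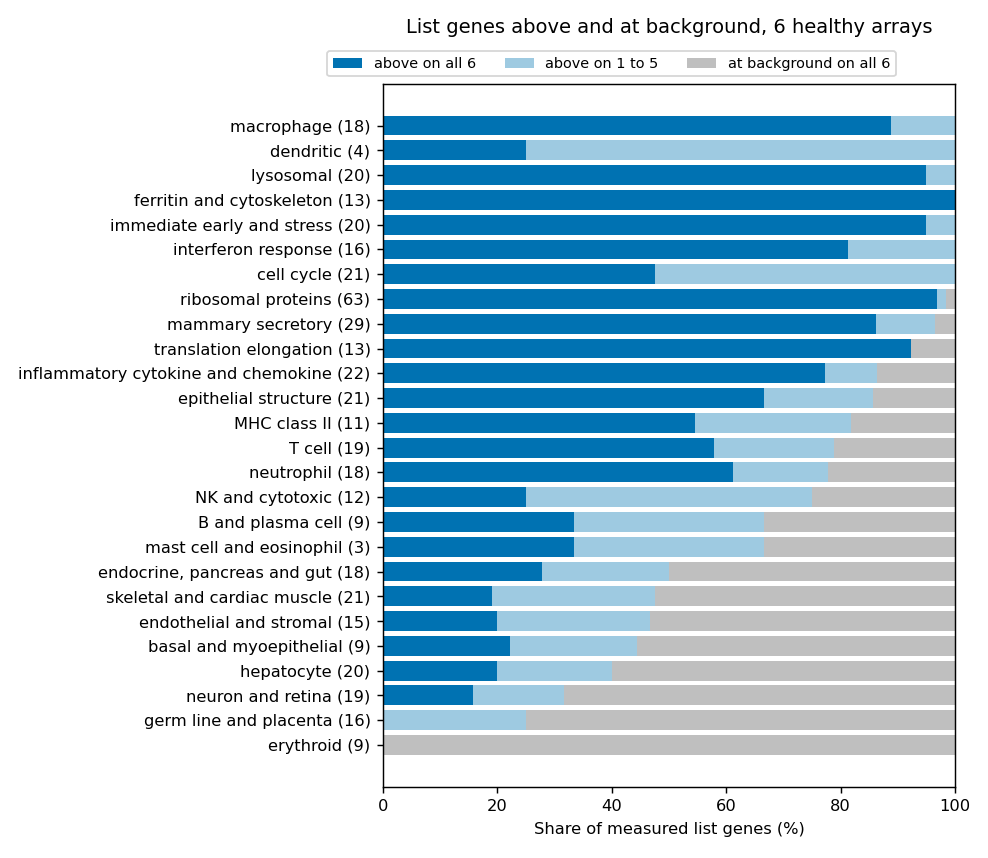
Share of the measured genes of each list, in percent, that were above background on all 6 healthy arrays, on 1 to 5, or on none, with the number measured in brackets. Every erythroid gene was at background, while the macrophage, lysosomal, interferon and cell cycle lists had no gene at background on all 6 arrays.

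Macrophage, lysosomal and secretory genes were seldom at background, while the lymphocyte and neutrophil lists had shares near or above the 20.9% of all genes. None of 18 macrophage genes, 20 lysosomal genes, 21 cell cycle genes or 16 interferon response genes was at background on all 6 arrays, and 1 of 29 mammary secretory genes was, SLC34A2, a phosphate carrier. In the epithelial structure list 3 of 21 were, among them KRT8, a keratin of simple epithelia, at 2.43 on each array. KRT19, also a keratin of simple epithelia, lay at 6.87 to 9.70. In the lymphocyte lists CD4 and CD28 were at background although CD3G, a chain of the T cell receptor complex, lay at 3.16 to 7.48; the T cell list had 4 of 19 genes at background (21.1%), the NK and cytotoxic list 3 of 12 (25%) and the dendritic list 0 of 4. The B and plasma cell list had 3 of 9 (33.3%), with CD79A, a chain of the B cell receptor, at 2.45 to 2.52 and IGHM, the heavy chain of IgM, at 4.33 to 7.04. The neutrophil list had 4 of 18 (22.2%), including the cathelicidins CATHL1 and CATHL3.

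The spread between healthy cows was large in the macrophage, lysosomal and MHC class II lists and small in the ribosomal proteins. The median SD over all 9155 genes was 0.26 log2 units, 89 genes (0.972%) had a range of at least 4, and 515 of the 7241 genes not at background (7.11%) had an SD of at least 1. Against that share, 15 of 18 macrophage genes, 13 of 20 lysosomal genes, 6 of 9 MHC class II genes, 6 of 15 T cell genes and 10 of 28 mammary secretory genes had an SD of at least 1, and 0 of 62 ribosomal protein genes did. In bulk RNA fewer cells of a type and less RNA per cell cannot be told apart. Technical differences between the arrays were not separated from either. The 50th gene by SD had 1.72 and the 51st 1.71. Of the 50 most variable genes 3 are in the macrophage list, 2 in the lysosomal list and 5 in other lists, and 40 are in none. Without healthy 6, 32 of the 50 genes stayed among the 50 most variable and 38 genes had a range of at least 4. Without healthy 3, these counts were 36 and 56.

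**Figure D3:**
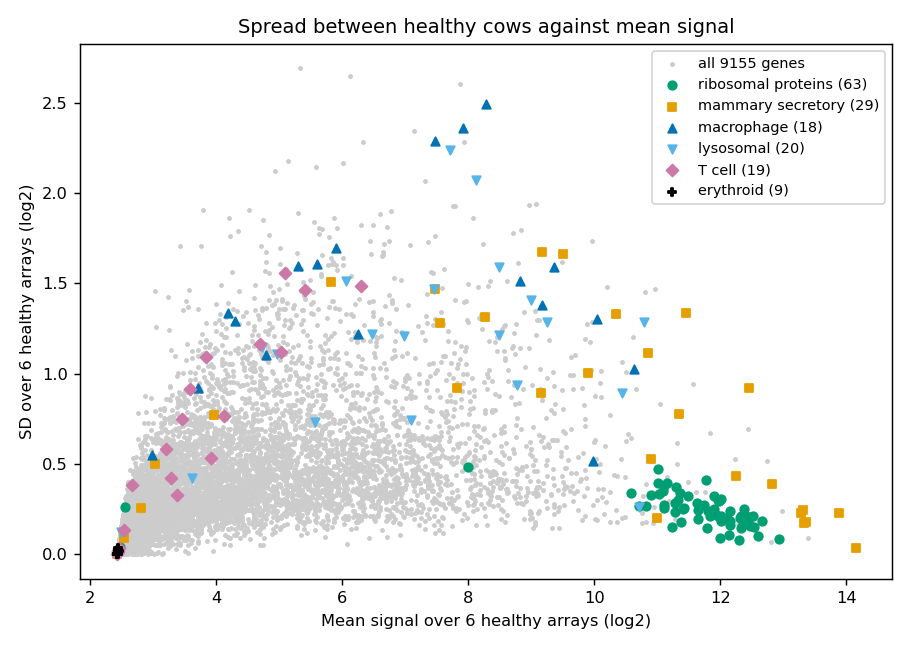
SD over the 6 healthy arrays against mean signal, both in log2 units, for every gene in grey and for 6 gene lists in colour, with the number of genes in brackets. Ribosomal protein genes lie at high mean and low SD, 15 of 18 macrophage and 13 of 20 lysosomal genes have an SD of at least 1, and erythroid genes lie at the floor.

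Most macrophage genes were highest on healthy 1 or healthy 6 and lowest on healthy 3. CD68 had 11.14, 10.11, 7.23, 8.33, 8.44 and 10.94 on healthy 1 to 6, a 15.0-fold range, and an SD of 1.59, which was 1.34 without healthy 3 and 1.56 without healthy 6. GPNMB, a glycoprotein of lipid-laden macrophages, had 10.21, 8.48, 4.75, 5.95, 7.36 and 10.76. FABP4, the fatty acid binding protein of macrophages and adipocytes, had 10.01, 9.41, 4.89, 5.76, 8.31 and 11.28. In all 3 genes healthy 1, 2 and 6 lay above healthy 3, 4 and 5, and GPNMB was 64.4-fold higher on healthy 6 than on healthy 3. APOE, the lipid carrier that macrophages secrete, ranged from 4.80 on healthy 4 to 9.94 on healthy 6. CTSS, a cathepsin that cuts the invariant chain, and LGMN, a lysosomal protease, ranged less, from 9.24 to 11.66 and from 8.28 to 11.42. Of the 18 macrophage genes, 10 were highest on healthy 1 (background 15.0%), 6 on healthy 6 (background 30.0%) and 2 on healthy 2, and 15 were lowest on healthy 3 (background 30.0%). LPL, lipoprotein lipase, is in the list but is also made by secretory cells, and it did not follow, with 9.39, 10.68, 10.43, 10.06, 9.93 and 9.44.

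Lysosomal genes had the same extremes. CTSB, cathepsin B, had 12.12, 11.68, 8.89, 10.13, 10.07 and 11.86. CTSK, cathepsin K, had 9.51, 8.89, 5.06, 5.63, 6.66 and 10.54, and LIPA, the acid lipase that releases fatty acids from stored esters, had 9.47, 9.43, 4.85, 6.74, 7.89 and 10.40. Of 20 lysosomal genes, 10 were highest on healthy 1 (background 15.0%) and 8 on healthy 6 (background 30.0%), and 13 were lowest on healthy 3 (background 30.0%). NPC2, a cholesterol carrier of the lysosome, was even, at 10.42 to 11.11. Other genes among the 25 most variable followed the same arrays: DEFB4A, a beta-defensin, had 10.16, 9.56, 5.91, 5.19, 6.62 and 10.19, and MMP19, a metalloproteinase, had 8.95, 8.28, 4.79, 5.77, 6.05 and 10.03. DEFB4A was lowest on healthy 4. MMP19, FOLR2, a folate receptor of macrophages, and SCIN, an actin-severing protein, were highest on healthy 6 and lowest on healthy 3. Without healthy 3 the SD of LIPA went from 2.07 to 1.46 and that of SCIN from 1.93 to 1.30. The median SD of the macrophage list was 1.36 with all arrays, 1.15 without healthy 3 and 1.38 without healthy 6.

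The genes whose signal was most like that of CD68 over the 6 arrays, among the 514 other genes with an SD of at least 1, were SOAT1, which esterifies cholesterol, with a Pearson r of 0.999, FCGRT, the receptor that protects IgG from breakdown, with 0.998, and HEATR3 with 0.998. SOAT1 had 8.01, 7.28, 4.96, 5.67, 5.79 and 7.91. These genes were picked for their likeness over 6 arrays, so the values only describe it.

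**Figure D4:**
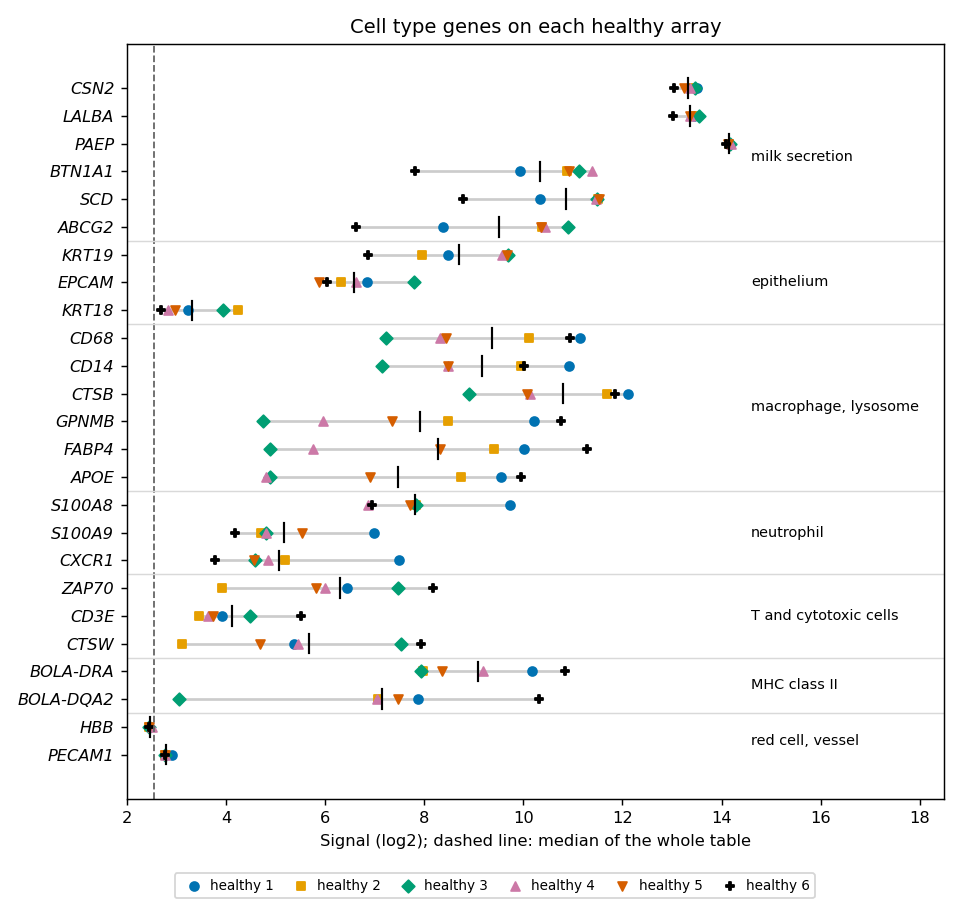
Signal in log2 units on each healthy array for genes of the cell types named at the right, with the range as a grey line, the mean as a black bar and the table median as a dashed line. Most macrophage and lysosomal genes shown are lowest on healthy 3 (CD68 at 7.23), BTN1A1 is lowest on healthy 6 (7.82), and ZAP70 is lowest on healthy 2 (3.91).

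Most secretory genes were lowest on healthy 6. BTN1A1, butyrophilin of the fat globule membrane, had 9.94, 10.87, 11.12, 11.40, 10.93 and 7.82. SCD, the desaturase that makes oleic acid, had 10.34, 11.51, 11.49, 11.46, 11.53 and 8.78. Healthy 6 was lowest and healthy 1 the next in both genes, and the other 4 arrays were close together. The SD of BTN1A1 was 1.33 and 0.55 without healthy 6. Of 28 secretory genes not at background, 23 were lowest on healthy 6 (background 15.3%), 11 were highest on healthy 3 (background 12.5%) and 7 on healthy 4 (background 10.5%). The median deviation of the list on healthy 6 was -1.36 log2 units, and its median SD of 0.77 dropped to 0.41 without that array. ELF5, a transcription factor of alveolar cells, and ABCG2, a transporter into milk, which were named after their values were seen, had 8.93 and 6.62 on healthy 6 and at least 11.11 and 8.38 on the others. On the probe sets used, CSN2, CSN3, CSN1S2, LALBA and PAEP were also lowest there, within 1 log2 unit of their highest array. The other bright CSN2 probe set was lowest there too, at 11.36, against 12.61 to 13.26 on the other arrays.

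Of the 50 most variable genes 14 were lowest on healthy 6 (background 15.3%). S100B, a calcium-binding protein, had 8.02, 9.47, 9.32, 10.63, 11.17 and 5.81. CIDEA, a lipid droplet protein that regulates milk fat secretion, had 7.20, 9.45, 7.41, 9.64, 8.59 and 4.43. GPD1, which supplies glycerol phosphate for fat synthesis, had 5.94, 7.25, 7.53, 8.18, 8.45 and 3.33. Without healthy 6 the SD of S100B went from 1.94 to 1.23, that of CIDEA from 1.93 to 1.13 and that of GPD1 from 1.90 to 0.98. Most like BTN1A1 were SLC39A8, a zinc and manganese importer, with r of 0.996, SCD with 0.985 and MAPK13, a p38 kinase, with 0.981. Epithelial structure genes moved less evenly: 10 of 18 were lowest on healthy 6 (background 15.3%) and 8 were highest on healthy 3 (background 12.5%). EPCAM, the epithelial adhesion molecule, had 6.85, 6.32, 7.78, 6.63, 5.88 and 6.03. KRT18, the keratin that pairs with KRT8, had 3.22, 4.25, 3.94, 2.83, 2.96 and 2.68.

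T cell genes had another order, with healthy 6 highest and healthy 2 lowest. ZAP70, the kinase next to the T cell receptor, had 6.43, 3.91, 7.48, 5.99, 5.81 and 8.18. CD3E, a chain of the receptor complex, had 3.91, 3.45, 4.49, 3.63, 3.74 and 5.52. CTSW, a cathepsin of cytotoxic lymphocytes, had 5.38, 3.10, 7.52, 5.45, 4.67 and 7.93. Healthy 3 was second to healthy 6 in these genes, unlike in most macrophage genes, where it was lowest. Over the whole T cell list it was not second. Its median deviation was -0.10 there, against -0.04 on healthy 1, -0.06 on healthy 5 and 1.39 on healthy 6. Of 15 T cell genes not at background, 14 were highest on healthy 6 (background 30.0%) and all 15 were lowest on healthy 2 (background 13.6%). The median SD of the T cell list went from 0.77 to 0.46 without healthy 6, and that of CD3E from 0.77 to 0.40. Of the NK and cytotoxic genes 5 of 9 were lowest on healthy 2 (background 13.6%). None of 6 B and plasma cell genes was lowest there, and 4 were lowest on healthy 3 (background 30.0%). KIT, the stem cell factor receptor, had 5.18, 2.98, 7.90, 6.62, 4.63 and 8.78. It stood in the mast cell and eosinophil list, where the other measured genes were CCR3, above background on 1 array, and HDC, at background on all 6. PRF1, perforin, lay at 2.46 to 4.32, while CD8A, a coreceptor of cytotoxic T cells named after its values were seen, lay at 2.98 to 5.68.

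Most neutrophil and inflammatory genes were highest on healthy 1. S100A8, a subunit of calprotectin, had 9.73, 7.82, 7.83, 6.87, 7.71 and 6.95. S100A9, the other subunit, had 6.99, 4.71, 4.81, 4.81, 5.54 and 4.18. Healthy 1 was above all other arrays for both. Of 14 neutrophil genes not at background, 9 were highest on healthy 1 (background 15.0%). So were 15 of 19 genes of inflammatory cytokines and chemokines and 14 of 20 immediate early and stress genes. CXCL8, the neutrophil attractant, had 11.78, 10.85, 10.19, 10.18, 10.41 and 10.10, and CCL2, the monocyte attractant, had 11.16, 10.14, 7.59, 10.22, 10.15 and 9.91. PTX3, a soluble pattern recognition protein, had 7.86, 3.23, 5.55, 3.95, 3.87 and 2.63. MT1A, a metal-binding metallothionein, was high on healthy 1 and healthy 2, with 7.72 and 7.44, and lay between 2.58 and 4.17 on the others.

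MHC class II genes were highest on healthy 6 for 7 of 9 (background 30.0%) and lowest on healthy 3 for 6 of 9 (background 30.0%). BOLA-DRA, the alpha chain of DR, had 10.18, 7.97, 7.94, 9.19, 8.36 and 10.84. BOLA-DQA2, an alpha chain of DQ, had 7.88, 7.07, 3.05, 7.05, 7.47 and 10.32, and its SD went from 2.34 to 1.36 without healthy 3. BOLA, an MHC symbol that is not in the class II list, had 3.06, 6.07, 3.24, 7.80, 6.64 and 9.91, lowest on healthy 1. Without healthy 3 and healthy 6 together, the median SD of the MHC class II list was 0.39, against 1.21 with all arrays.

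Interferon response genes were highest on healthy 2 for 11 of 16 (background 8.65%). ISG15, a ubiquitin-like protein, had 9.72, 10.58, 7.52, 8.39, 8.81 and 7.96, and RSAD2, viperin, had 5.65, 7.17, 3.80, 3.92, 4.12 and 5.88. Cell cycle genes were highest on healthy 6 for 19 of 21 (background 30.0%), at low signals. RRM2, a subunit of ribonucleotide reductase, had 3.95, 4.33, 2.46, 3.09, 3.35 and 5.76. MCM7, part of the replicative helicase, had 5.53 on healthy 6 and 3.64 to 4.11 on the others. Among the cell cycle genes 9 were lowest on healthy 4 (background 10.9%). Of the immediate early and stress genes 8 were lowest on healthy 5 (background 11.1%).

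**Figure D5:**
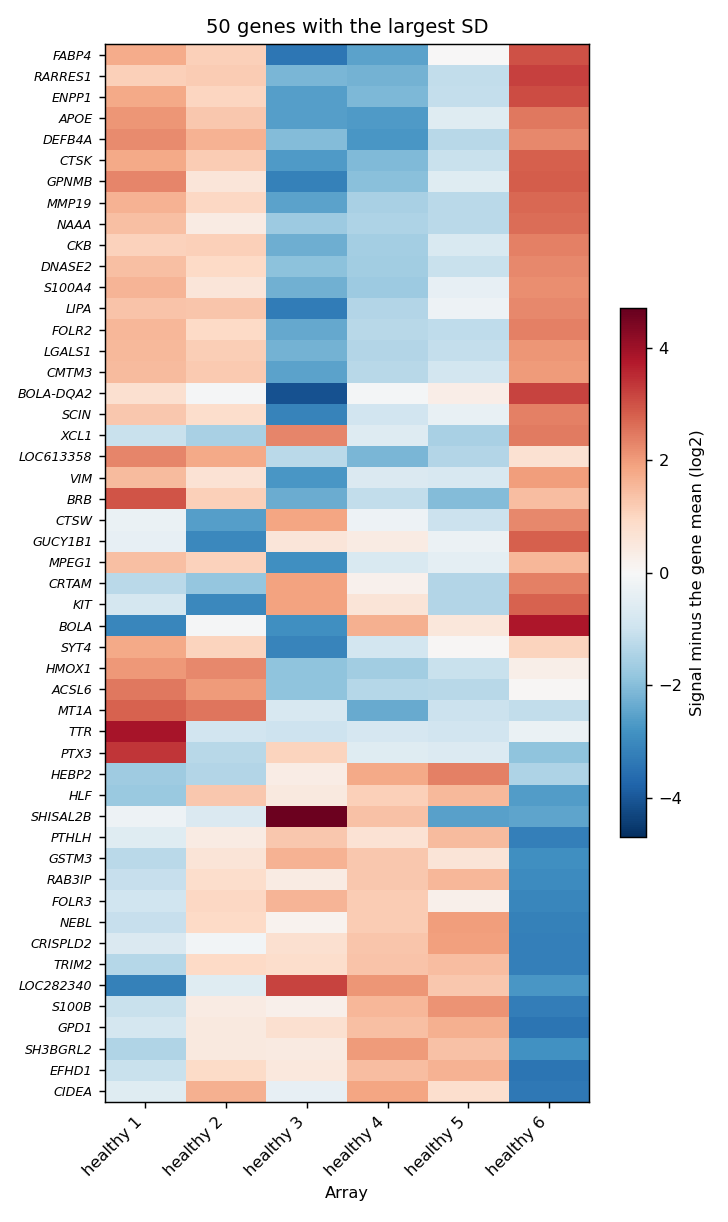
The 50 genes with the largest SD over the healthy arrays, each row centred on the gene's mean, in log2 units from blue (lower) to red (higher), ordered by healthy 6 minus healthy 4. A block that holds GPNMB, FABP4, APOE, CTSK and LIPA is red on healthy 1, 2 and 6 and blue on healthy 3 and 4, and a block that holds S100B, GPD1 and CIDEA is blue on healthy 6.

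A few genes were high on 1 array. TTR, the thyroid hormone carrier transthyretin, had 7.66 on healthy 1 and at most 3.47 elsewhere. SHISAL2B, which had the largest SD of all, 2.69, had 9.93 on healthy 3 and at most 6.70 elsewhere; without healthy 3 its SD was 1.65. LAP, lingual antimicrobial peptide, an epithelial beta-defensin, had 7.19 on healthy 5 and at most 3.63 elsewhere. PRSS2, a pancreatic trypsin, had 6.00 on healthy 6 and 2.43 on every other array, and ATP6V0D2, a proton pump subunit of osteoclasts and macrophages, had 6.11 on healthy 6 and at most 3.05. LAP, PRSS2 and ATP6V0D2 were named after their values were seen. These 5 were all the genes whose brightest array exceeded the next by at least 3 log2 units.

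In the 50 most variable genes, 26 were highest on healthy 6 (background 30.0%) and 22 were lowest on healthy 3 (background 30.0%). Of these genes, 10 had a second probe set above background on all 6 arrays, and in 8 of them both probe sets correlated at 0.9 or more; the median r was 0.97, against 0.67 over 901 such genes and 0.95 over the 83 of them with an SD of at least 1, of which 55 reached 0.9. CMTM3, with 0.58, and SYT4, with 0.78, were the exceptions. On the 6 endometritis arrays, which the ranking by SD did not use, although a gene's probe set was chosen over all 18 arrays, the median SD of the 50 genes was 1.95, against 0.27 over all genes. There, 45 of the 50 genes had an SD of at least 1, against 749 of 9155 genes (8.18%), and 19 were again among the 50 largest. FABP4 had 2.82 there and GPNMB 1.89. MT1A had 0.89. The sample numbers in the titles form a low run and a high run of 3 arrays each; both runs did not overlap in 2 of the 50 genes and in 493 of 7241 genes (6.81%).

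The 5 genes that stand for cell types were correlated in 10 pairs over the 6 arrays with exact two-sided permutation tests, whose smallest possible p is 0.0028. No pair passed after Benjamini-Hochberg adjustment. BTN1A1 and CD68 had r = -0.72 (exact p = 0.076, adjusted 0.38) and rho = -0.89 (exact p = 0.033, adjusted 0.33), and r = -0.51 without healthy 1 and healthy 6, the arrays farthest from the BTN1A1 median. BTN1A1 and CD3E had r = -0.83 (exact p = 0.065, adjusted 0.38) and rho = -0.43 (exact p = 0.42, adjusted 0.92), and r = 0.17 without the same arrays. Its r was -0.87 without healthy 1 and -0.03 without healthy 6, so that relation rests on healthy 6. CD68 and CD3E had r = 0.23 and CD68 and S100A9 r = 0.27 (exact p = 0.70 and 0.65, both adjusted 0.79). Each run of sample numbers holds 3 arrays, too few for a value within it.

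The order of the arrays for a gene list depends on how arrays are set against each other. With the arrays shifted to equal hybridisation controls, which lowers healthy 3 by 0.81 and raises healthy 5 by 0.44 log2 units, 6411 of 7241 genes were lowest on healthy 3. Under that shift 13 of 18 macrophage genes were highest on healthy 6 and 3 on healthy 1, 6 of 15 T cell genes were lowest on healthy 2 and 8 on healthy 3, 16 of 28 secretory genes were lowest on healthy 6 and 11 on healthy 3, and 59 of 62 ribosomal protein genes were lowest on healthy 3. The secretory genes were then highest on healthy 5 for 18, on healthy 4 for 4 and on healthy 3 for 0. Of 20 lysosomal genes 17 were then highest on healthy 6 and 2 on healthy 1. Of all 7241 genes, 3787 were highest on healthy 5 under the shift, 2539 on healthy 6 and 359 on healthy 1. Lowest on healthy 6 were 272 of them, and lowest on healthy 2 were 87. Cell cycle genes lowest on healthy 4 numbered 1 under the shift and 4 with quantile normalisation, and immediate early and stress genes lowest on healthy 5 numbered 1 and 9. The counts under the shift for T cell genes highest on healthy 6 (14 of 15), neutrophil genes highest on healthy 1 (9 of 14) and interferon genes highest on healthy 2 (11 of 16) differed little from the values as deposited. With quantile normalisation, 14 of 18 macrophage genes were lowest on healthy 3, against 1765 of all 7241 genes. Lowest on healthy 6 were 22 of 28 secretory genes, against 1437 of all genes. Lowest on healthy 2 were 15 of 15 T cell genes, against 888 of all genes. Of 9 MHC class II genes, 7 were highest on healthy 6, but 4 were lowest on healthy 3 and 4 on healthy 2. Of 20 lysosomal genes, 10 were lowest on healthy 3 and 6 on healthy 5, against 1765 and 1127 of all genes. Of 62 ribosomal protein genes, 22 were highest on healthy 5 and 19 on healthy 3, against 1401 and 1517 of all genes. Of the same 62 genes, 38 were lowest on healthy 1 and 15 on healthy 2, against 1117 and 888.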

How the data were processed

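RNA of milk cells was measured on 18 Affymetrix bovine arrays, and the 6 healthy ones are described here. Per the labels' protocols, samples had to pass an RNA integrity number of 6, amplification started from 100 ng with a 3′ labelling kit, and 10 µg went on each array. The log2 signals were used as the authors deposited them. RMA, GCRMA and limma are credited to the submitters' processing notes without role or version, so the normalisation method and the log base stay unknown, and folds assume base 2. No depth applies to arrays, and their number limits the precision. The table had 0 columns of no sample. Symbols came from the platform annotation and were checked against assembly ARS-UCD2.0, where 29 identifiers were absent and 0 symbols changed. No sequence or coordinate is given.

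Values were used as deposited, with means, SDs, ranges and exact permutation correlations computed in Python 3.11 (numpy, pandas); the steps were tested on simulated data. An array is 1 cow, so the spread is that between animals plus technical spread. Named genes are the 25 of highest mean, the 25 of largest SD, up to 4 brightest and 2 background members of each of 26 lists, 5 reference genes, the given markers and the 3 genes most like CD68 and BTN1A1; others are marked in the text. The members and lists were chosen with earlier results of these data known. Alternatives were quantile normalisation, hybridisation control scaling, other probe set rules, background lines and spread measures, and leaving out each array; leaving out healthy 3 and healthy 6 together was chosen after seeing the data.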

Additional observations from a re-analysis of the deposited data

Results flagged for a closer look

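Each named gene that was not at background and each array measure was examined for 1 array that lay far from the other 5, meaning that its gap to the nearest array, as a share of the whole range, passed Dixon's 95% critical value. Chance alone marks about 1 in 20 of such groups. That rate does not apply to genes named for a large SD or for 1 high array, such as TTR, LAP, PRSS2 and ATP6V0D2. No explanation is weighed.

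On healthy 3 the 4 poly-A control means were high, with 9.03 for dap, 5.32 for lys, 6.25 for phe and 6.22 for thr, and 6480 genes were above background. CCL2 was low there at 7.59 and CKM, a muscle kinase, low at 3.35 on its brighter probe set. The other CKM probe set averaged 2.44, at background, and what the brighter one binds was not tested. GAP43 at 3.33, CYP19A1 at 3.33, TEK at 2.93, TKDP1 at 2.85 and TNP1 at 2.81 were high there but close to background. On healthy 6 LALBA was low at 13.02 and GLYCAM1 low at 12.83, and PRF1 was high at 4.32, FCER1A at 3.23, MCM7 at 5.53, PRSS2 at 6.00, ATP6V0D2 at 6.11 and BOLA-N, an MHC class I symbol, at 6.34. On healthy 1 TTR was high at 7.66, S100A8 at 9.73, KRT5 at 3.89, PECAM1 at 2.90 and COL1A1 at 2.74. On healthy 2 KRT17 was high at 3.06 and CCR3 at 2.64. On healthy 4 MYH11 was high at 2.58, and TCAP was low at 3.01 by a gap under 0.01. On healthy 5 LAP was high at 7.19.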

How the results depend on the processing

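Of the 50 brightest genes, 39 to 50 stayed among the 50 under every alternative, with 30 to 34 ribosomal protein genes. The count at background on all 6 arrays was 3232 with the line at 3, 4754 with the line at 4 and 0 after shifting arrays to the hybridisation controls, since that shift moves whole arrays past a fixed line; the count above background on all 6 was 2631 with the line at 4. Of the 50 most variable genes, 25 stayed with the median absolute deviation, 25 without healthy 3 and healthy 6 together, and 32 to 44 without any 1 array. Genes with a range of at least 4 numbered 200 after the hybridisation shift, 18 without healthy 3 and healthy 6 together, and 38 to 83 without any 1 array.

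No correlation passed the threshold under any alternative, and with 6 arrays or fewer this says nothing of stability. After quantile normalisation KRT18 with S100A9 turned to r = 0.0113. After the hybridisation shift it was 0.0602, and KRT18 with CD68 was 0.23. Without any 1 array, BTN1A1 with CD3E ran from -0.96 to -0.03, BTN1A1 with KRT18 from -0.0094 to 0.69, BTN1A1 with S100A9 from -0.91 to 0.69, KRT18 with CD68 from -0.53 to 0.19, KRT18 with CD3E from -0.56 to 0.17, KRT18 with S100A9 from -0.38 to 0.17, CD68 with CD3E from -0.50 to 0.52, CD68 with S100A9 from -0.60 to 0.67, and CD3E with S100A9 from -0.66 to 0.0756. The cause of these changes was not tested. The mean of a named gene moved by more than its SD for 35 of 180 genes with the median over probe sets. Without any 1 array it did so for 0 of 180. Leaving out 1 of 6 arrays cannot move a mean that far, so this count shows nothing of stability. No paired analysis was possible because no test between groups was made.

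Limits: 6 cows were measured in bulk, the ages and lactations are not tied to arrays, a farm or clinic is not given per array, and dim signals have no order.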
